A study of Mus musculus with 10 samples.

Results

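The 3 arrays of induced cardiomyocyte-like cells (iCM) made with the GMT factors alone, sampled at days 3, 7 and 18, were set against the 1 array of untreated mouse embryonic fibroblasts (MEF), the cell type they were made from. The labels do not say whether the MEF array comes from the same preparation, passage or culture time as the cells that were transduced, which bears on every difference from MEF. The arrays were chosen by their titles, and together they are 4 of the 10 arrays of the series. Per the labels, MEF were given pMx retrovirus carrying GMT, cultured in serum medium, and the cells positive for an α-MHC-GFP reporter were sorted out at each day. The MEF array carries the label of no treatment, and no virus, sort or day in culture is recorded for it. In every difference below, the factors cannot be told apart from the virus, the medium, the reporter sort and the days in culture. By their titles, the other 6 arrays hold heart tissue, the positive control of the series, and iCM that also received miR-133, alone or with Snai1. A day 7 array among them is titled GMT/miR-133 but described as GMT alone. It was kept out of the GMT arrays by its title. Mouse strain, embryo age and the number of animals behind each array are not given in the sources used here, and whether the 3 days came from 1 transduction is not stated.

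GMT stands for Gata4, Mef2c and Tbx5, transcription factors that act in heart development. Gata4 is a zinc-finger protein, Mef2c belongs to the MADS-box family and Tbx5 to the T-box family, and all bind control regions of genes for contractile proteins. Forced together into fibroblasts, they are known to switch on part of the cardiomyocyte programme and to lower part of the fibroblast programme in a share of the cells. The α-MHC promoter drives the heavy chain of cardiac myosin, so the GFP sort enriches cells in which that promoter has become active. In RNA from such a pool, fewer cells of a type and less RNA per cell cannot be told apart.

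Each array gave 1 spot intensity for each of 23473 distinct probes, with 1 probe averaged over its spots. No gene names for the probe IDs were at hand, so cardiac, fibroblast and other marker genes could not be looked up, and the identity of the sorted cells could not be checked against markers. Single probes are given by ID, and groups of probes carry the description. Levels below are log2 normalized intensities on a scale that starts at 5.66. Detection meant a spot brighter than the 95th percentile of blank spots on that array, and 19563 to 20583 probes were detected on each of these 4 arrays. None of their spots was saturated. Repeated spots of the same positive control within an array, 24 each, had a standard deviation (SD) of 0.096 to 0.165 on the log2 scale of raw intensity. MEF and the GMT arrays of days 3 and 18 were scanned in 1 session and the GMT array of day 7 in another. The authors' value table carries the days of the 2 GMT arrays of days 3 and 7 the other way round from the scanner files. Which is right cannot be told from the files, so days are those of the scanner files. Comparisons of all 3 GMT arrays with MEF hold the same arrays under either order.

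Most probes lay close to MEF. Of the 21722 probes detected on at least 1 of the 4 arrays, 17309 (79.7%) stayed within 1.5-fold of MEF on all 3 GMT arrays. The share differed with brightness, and the offset limits how far dim probes can move. It was 93.7% for the 12010 probes whose mean over the 4 arrays was within 2-fold of the low end of the scale, and 62.4% for the 9712 brighter ones. Spearman's rank correlation with MEF across these probes was 0.919 at day 3, 0.923 at day 7 and 0.928 at day 18. Between the GMT arrays themselves it was 0.975 for days 3 and 18, 0.978 for days 3 and 7, and 0.959 for days 7 and 18. These values are across probes, which are not replicates. The SD of the difference from MEF (log2) was 0.60, 0.58 and 0.59 for days 3, 7 and 18. The SD of the difference between GMT arrays was smaller, 0.25 for day 18 against day 3, 0.26 for day 7 against day 3 and 0.37 for day 18 against day 7. Each GMT array thus lay further from MEF than from either other GMT array.

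More probes fell than rose at moderate size. At least 2-fold on all 3 GMT arrays, 297 probes were higher than in MEF (1.37% of those tested) and 503 were lower (2.32%). On single arrays the higher probes numbered 525 at day 3 (2.42%), 543 at day 7 (2.5%) and 644 at day 18 (2.96%). The lower probes numbered 729 at day 3 (3.36%), 702 at day 7 (3.23%) and 740 at day 18 (3.41%). Since every array was set against the same MEF array, an error of that array enters all 3 differences. Falls outnumbered rises in every alternative run for the 2-fold counts on all 3 days except the authors' value table, where 949 probes were higher and 944 lower.

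The order changed at the far end. A 4-fold limit on all 3 arrays left 79 rises (0.364%) and 161 falls (0.741%), and an 8-fold limit left 29 rises (0.134%) and 46 falls (0.212%). The 16-fold limit was passed by 17 rises (0.0783%) and 9 falls (0.0414%). On single arrays the 4-fold rises were 132 at day 3 (0.608%), 114 at day 7 (0.525%) and 164 at day 18 (0.755%). The 4-fold falls were 251 (1.16%), 224 (1.03%) and 204 (0.939%) in the same order of days. For 8-fold, rises were 49 (0.226%), 39 (0.18%) and 66 (0.304%), and falls were 109 (0.502%), 83 (0.382%) and 72 (0.331%). By the days of the scanner files, large falls were thus most frequent at day 3 and large rises at day 18. In the other order of days 3 and 7, large falls would be most frequent at day 7. The 16-fold order was not the same on each array. At day 3, 25 probes were at least 16-fold higher (0.115%) and 43 lower (0.198%), at day 7 22 (0.101%) and 32 (0.147%), and at day 18 34 (0.157%) and 21 (0.0967%). Without the day 18 array 17 probes were higher and 28 lower on the other two, and with a smaller offset of 16 in the background correction 23 were higher and 24 lower. The excess of rises at this size was thus lost in these settings, and on single arrays it was seen at day 18 only. Every other alternative run kept it. Higher and lower were 10 and 4 with the local background and 18 and 8 with median scaling. They were 63 and 37 in the authors' value table.

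**Figure D1:**
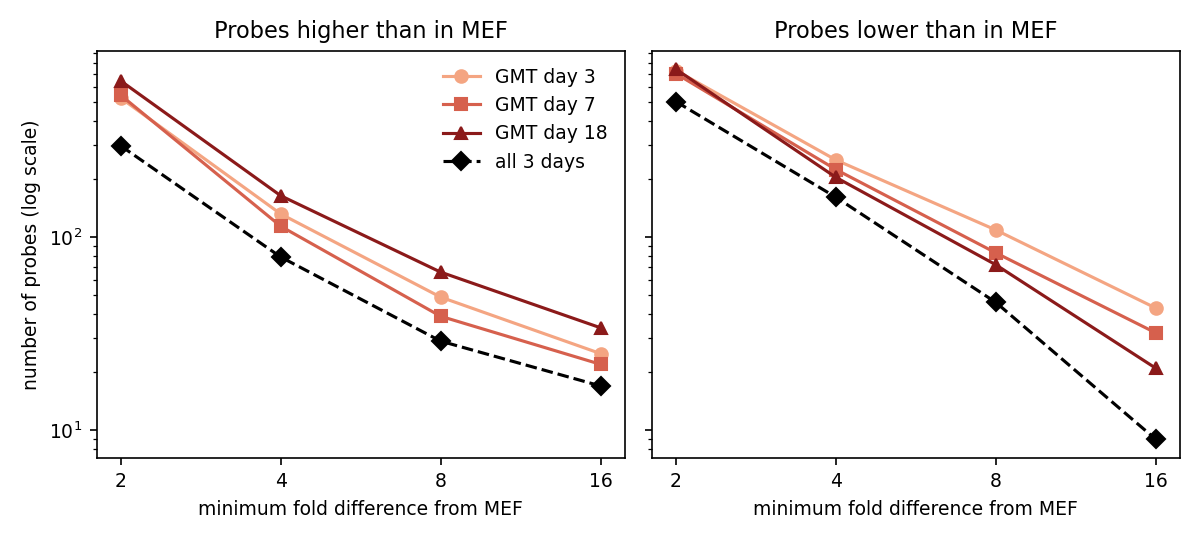
Number of probes (log scale) at least 2-, 4-, 8- and 16-fold higher (left) or lower (right) than on the MEF array, for the GMT arrays of days 3, 7 and 18 and for all 3 at once (dashed). Day 18 has the most higher probes at each fold, 644 to 34, and day 3 the most lower probes from 4-fold upward, 251 to 43.

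A test of the difference was made with limma's moderated linear model over the 21722 probes, with the 3 days standing in for replicates. The spread it uses is the spread between days, and the lone MEF array is assumed to vary like the GMT arrays. At a Benjamini-Hochberg adjusted p under 0.05, 173 probes were called higher (0.796%) and 372 lower (1.71%), and 3956 had an unadjusted p under 0.05. The absolute change of the called probes had a median of 1.39 (log2) for rises and 1.40 for falls, with standard errors (SE) of 0.058 to 0.78. Of the probes at least 2-fold on all 3 arrays, 380 were also called, 118 higher (0.543%) and 262 lower (1.21%), and 420 were not. Leaving out any 1 GMT array left limma with 0 calls, with 2528 probes at an unadjusted p under 0.05 without day 3, 4199 without day 7 and 3727 without day 18. With each array scaled to its median in place of quantile normalization, 409 were called higher and 546 lower. From the value table of the authors, 384 were called higher and 416 lower, so the share of rises among calls went from 31.7% to 42.8% and 48.0%.

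**Figure D2:**
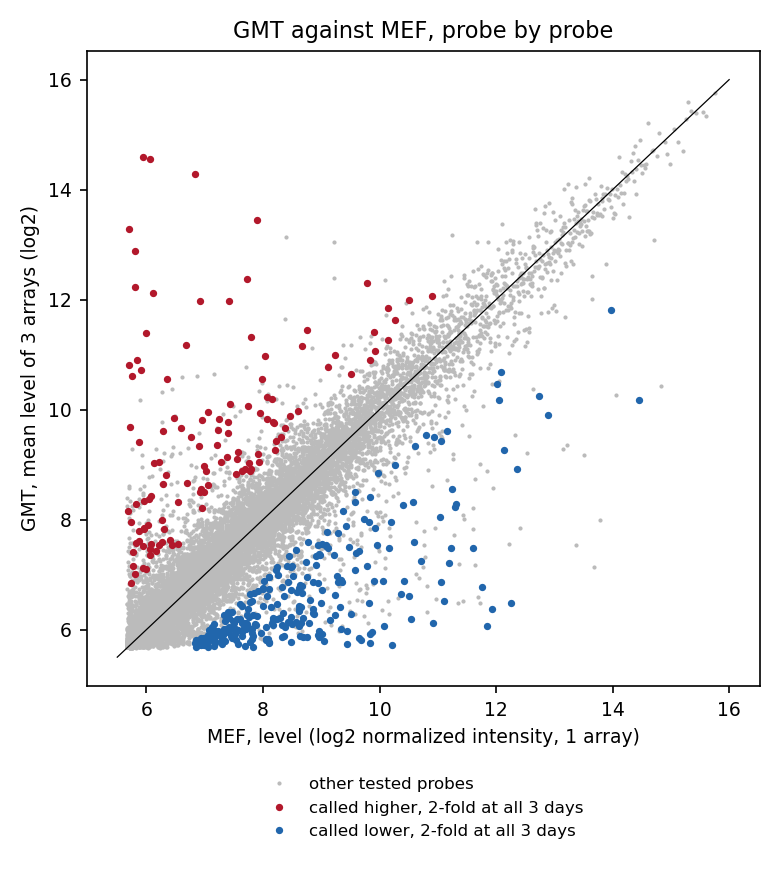
Mean level of the 3 GMT arrays (y axis, log2 normalized intensity) against the level on the MEF array (x axis, log2) for the 21722 tested probes, with the line of equality. Red points are the 118 probes called higher and blue points the 262 called lower by limma that were also at least 2-fold on all 3 GMT arrays. A column of red points stands at the low end of the MEF axis and a row of blue points at the low end of the GMT axis.

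The 297 higher probes were at the low end of the scale in MEF less often than probes in general. Within 2-fold of it were 132 of them (44.4%), beside 55.8% of all tested probes, and 12 (4.04%) were not detected there, beside 5.24%. Their median level was 6.83 in MEF and 9.10, 9.0 and 9.17 at days 3, 7 and 18 with GMT. The median of their differences from MEF was 1.78 at day 3, 1.69 at day 7 and 1.84 at day 18, a mean of 1.77 ± 0.072 (log2, SD, n = 3 days), compared with 0.015, 0.011 and −0.0012 over all tested probes. The rule chose these probes by the same differences, so the values describe their size and carry no test.

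The 503 lower probes ended no closer to the low end of the scale than probes in general. Within 2-fold of it were 279 (55.5%) at day 3, 255 (50.7%) at day 7 and 224 (44.5%) at day 18, beside 55.8%, 55.8% and 55.7% of all tested probes. Of them, 198 (39.4%) were that low on all 3 GMT arrays together, beside 52.3% of all tested probes. Detected on none of the 3 GMT arrays were 4 (0.795%), beside 2.14% of all tested probes. The median level of the 503 was 8.86 in MEF and 6.46, 6.64 and 6.83 at days 3, 7 and 18. The median difference from MEF was −1.93, −1.76 and −1.69, a mean of −1.79 ± 0.12 (log2, SD, n = 3 days). Because the offset and the low end of the scale compress dim probes, the size of both groups is understated where 1 side is dim.

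In the unnormalized scanner light, the choice of these probes fixes the direction of their shift, and the shares give its size. After subtraction of the blank-spot median, the 297 higher probes held 0.706% of all probe light on the MEF array. They held 5.0% at day 3, 4.73% at day 7 and 5.33% at day 18 with GMT. The 503 lower probes held 7.78% in MEF and 1.02%, 1.38% and 1.44% at days 3, 7 and 18. The 100 brightest probes of each array held 26.3% in MEF and 23.5% to 26.8% with GMT, so the light was concentrated to a like degree on the 4 arrays. The changed probes were spread over the chip: each of its 24 printed blocks held 7 to 19 of the higher and 13 to 26 of the lower probes.

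The largest mean rise among the called probes was at M400000392. Its level was 5.94 in MEF, 14.47 at day 3, 14.47 at day 7 and 14.84 at day 18, and all GMT arrays lay far above MEF. The mean difference was 8.65 ± 0.21 (log2, SD, n = 3 days), a 402-fold change on this scale, with an SE of 0.19 (limma, adjusted p = 0.0136). The size depends on the processing, from 7.24 with the local background to 9.81 with an offset of 16 and 10.90 in the authors' value table (log2). In heart the same probe was at 14.47. The raw spot intensity went from 29 in MEF to 22324, 26923 and 28586 with GMT. Scanner gain was 35 for MEF and 35, 30 and 38 for days 3, 7 and 18, and the blank-spot median 15, 14, 24 and 17. Raw intensities therefore give the direction and not an exact fold. M200000014 was next, at 6.07 in MEF and 14.79, 14.84 and 14.05 at days 3, 7 and 18. Its mean difference was 8.49 ± 0.44 (log2, SD, n = 3 days), with an SE of 0.39 (limma, adjusted p = 0.0273). The alternatives ran from 7.25 to 10.29. Its level in heart was 13.16, below each GMT array. Whether either probe reads RNA made from the retroviruses cannot be told without gene names.

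The largest mean fall among the called probes was at M200005191. It was at 11.84 in MEF and at 5.89, 5.85 and 6.48 at days 3, 7 and 18, near the low end of the scale on each GMT array. The mean difference was −5.76 ± 0.35 (log2, SD, n = 3 days), with an SE of 0.31 (limma, adjusted p = 0.0319). The alternatives ran from −7.73 to −4.79. Its raw intensity was 3588 in MEF and 23, 34 and 58 with GMT. M200006465 was at 12.25 in MEF and at 6.13, 6.87 and 6.48 with GMT, a mean difference of −5.76 ± 0.37 (log2, SD, n = 3 days) with an SE of 0.33 (limma, adjusted p = 0.0319) and alternatives from −6.86 to −4.21. Heart stood between the groups at both probes, at 10.32 for M200005191 and 8.86 for M200006465, so the GMT cells were below the positive control as well as below the fibroblasts. All 4 probes were called under each normalization, filter and variance model tried, and lost the call with the local background and without any 1 GMT array, while their direction was kept.

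**Figure D3:**
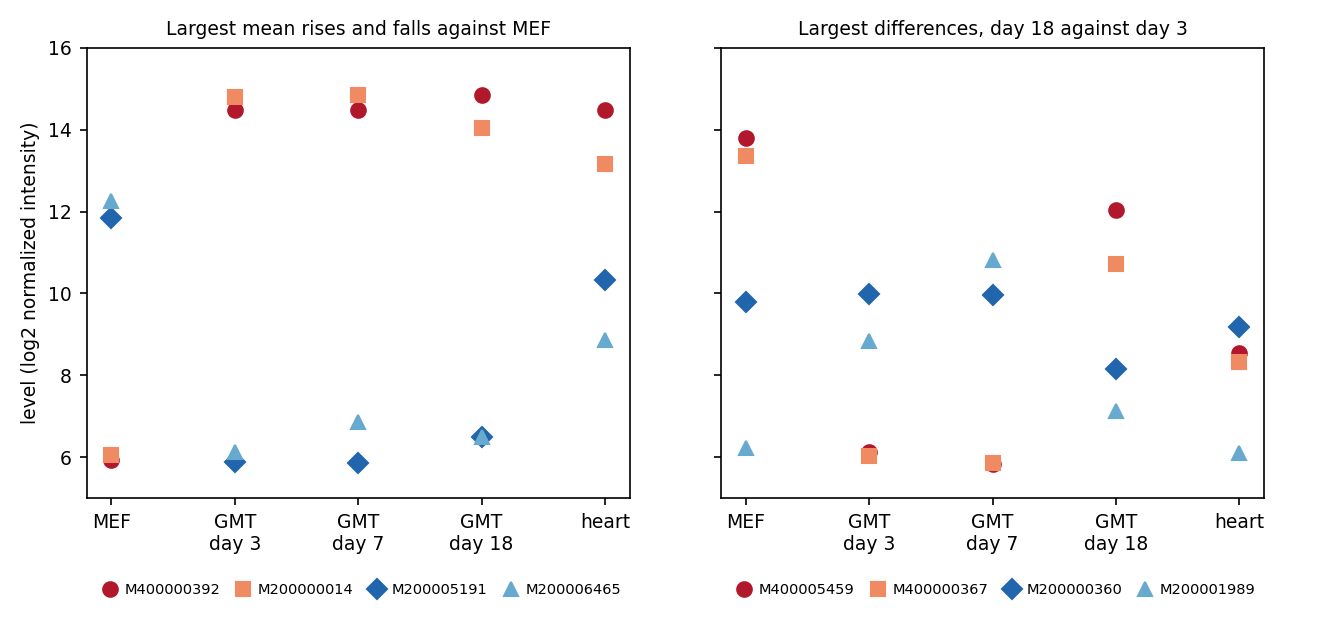
Level (log2 normalized intensity) on the MEF, GMT day 3, day 7, day 18 and heart arrays, 1 point per array. Left, the largest mean rises (M400000392, M200000014) and falls (M200005191, M200006465) against MEF among probes called by limma and at least 2-fold on all 3 GMT arrays. Right, those with the largest rises (M400005459, M400000367) and falls (M200000360, M200001989) from day 3 to day 18. On the left the 3 GMT points lie together, and on the right day 18 stands apart from the other days.

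The heart array gives a reference for these levels, with the caution that heart and GMT were both read against the same MEF array. The 297 higher probes had a median level of 8.14 in heart, between the 6.83 of MEF and the 9.0 to 9.17 of GMT. Their quartiles were 6.76 and 9.65 in heart, and on the GMT arrays the lower quartile was 8.01 to 8.14 and the upper 10.00 to 10.22. In heart 66 of them (22.2%) were within 2-fold of the low end of the scale, beside 55.7% of all tested probes. The 503 lower probes had a median level of 6.95 in heart, beside 6.46 to 6.83 with GMT and 8.86 in MEF.

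Read from the side of the controls, the GMT arrays showed a larger median move at the probes of the fibroblasts than at those of the heart. One set, called heart-high, holds the probes with a heart level 4-fold or more above MEF, of which 456 of 462 were tested (2.1%). Their median log2 difference from MEF with GMT was 0.40, 0.31 and 0.50 in the order of days. The mean of these medians was 0.40 ± 0.093 (SD, n = 3 days), beside 2.84 in heart. The other, called MEF-high, holds the 338 probes 4-fold or more below MEF in heart, all tested (1.56%). Their medians were −1.82, −1.71 and −1.57, and the mean was −1.70 ± 0.12 (SD, n = 3 days), beside −2.63 in heart. With the local background the heart-high value dropped to 0.20, and in the authors' value table it was 0.86. All these differences share the MEF array, and heart tissue holds several cell types. In MEF, 247 heart-high probes (54.2%) were within 2-fold of the low end, beside 55.8% of all tested probes. With GMT, 107 (31.7%), 100 (29.6%) and 73 (21.6%) MEF-high probes were, so the low end can limit the 2 medians unequally. The heart-high quartiles were 5.92 and 7.90 in MEF and 9.07 and 11.5 in heart. With GMT the lower was 6.17 to 6.33 and the upper 9.13 to 9.40.

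**Figure D4:**
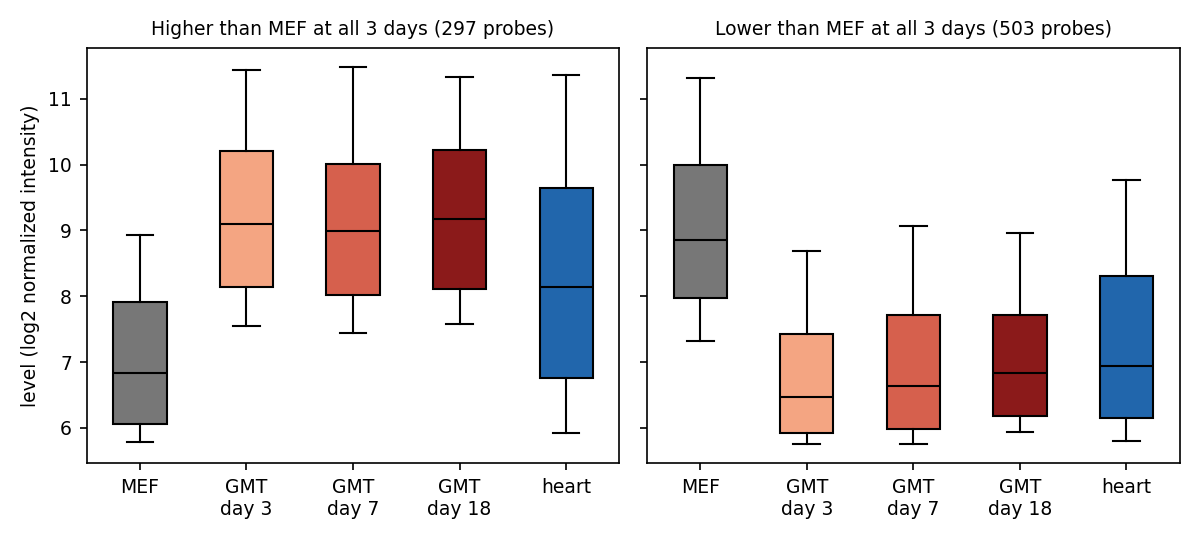
Levels (log2 normalized intensity) of the 297 probes higher (left) and the 503 probes lower (right) than MEF on all 3 GMT arrays, on the MEF, GMT and heart arrays. Lines are medians, boxes the quartiles and whiskers the 10th and 90th percentiles over probes. The GMT medians lie at 9.0 to 9.17 on the left and 6.46 to 6.83 on the right, with heart at 8.14 and 6.95.

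Of the 525 probes at least 2-fold higher at day 3, 297 were so on all 3 arrays, and of the 729 lower ones, 503. These groups were chosen for passing at every day, so what follows describes how their size varied between days. Of the 297 higher probes, 249 (83.8%) varied less than 2-fold between the 3 GMT arrays and 175 (58.9%) less than 1.5-fold. Of the 503 lower probes, 438 (87.1%) varied less than 2-fold and 346 (68.8%) less than 1.5-fold. Over all tested probes these shares were 97.5% and 90.6%. The whole set holds more dim probes, whose range the offset limits. Within 2-fold of the low end on all 3 GMT arrays were 52.3% of it, 0% of the higher and 39.4% of the lower probes. Whether the changed probes varied more between days than probes of like brightness was not tested. Within the lower group the day 18 array was the highest of the 3 GMT arrays at 278 probes, day 7 at 180 and day 3 at 45. Day 3 was the lowest at 242, day 7 at 165 and day 18 at 96. By the days of the scanner files, the fall was thus deepest at day 3 and shallowest at day 18 at many of these probes. In the other order of days 3 and 7, the deepest would be day 7. Within the higher group, day 18 was the highest array at 123 probes, day 7 at 100 and day 3 at 74, and day 7 was the lowest at 130, day 18 at 100 and day 3 at 67. Over all tested probes, day 18 was the highest at 7087, day 7 at 8135 and day 3 at 6500, and the lowest at 8525, 7634 and 5563 in that order.

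Differences between the GMT arrays were fewer than differences from MEF. Day 18 exceeded day 3 at least 2-fold at 123 probes (0.566%) and lay below it at 25 (0.115%), with 1 array a day and so no test. The 2 arrays were scanned in the same session. The counts were 291 (1.34%) and 203 (0.935%) if the array deposited as day 7 is taken as day 3, as the authors' value table has it. In that table with each column given the day of its scanner file, 465 probes were higher and 952 lower, so the balance turned. It was 854 and 1859 with the table's own days, and 619 and 181 with the local background.

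At the 123 probes that were higher at day 18, the GMT median lay below MEF at days 3 and 7 and near it at day 18. Their median level was 7.04 at day 3, 6.51 at day 7 and 8.65 at day 18, beside 8.74 in MEF and 7.62 in heart. The median difference from MEF was −0.93, −1.12 and 0.44 (log2) in the order of days. The 2-fold rule did not use MEF, but it fixed day 18 above day 3, so the place of MEF beside these days carries no test. Levels in MEF were widely spread at these probes, with quartiles of 6.49 and 10.51. The largest rise from day 3 to day 18 was at M400005459, at 13.79 in MEF, 6.13 at day 3, 5.84 at day 7 and 12.03 at day 18. M400000367 was at 13.37 in MEF, 6.02 at day 3, 5.87 at day 7 and 10.72 at day 18. Both probes were bright in MEF, at the bottom of the scale on the GMT arrays of days 3 and 7, and bright again at day 18, at a difference from MEF of −1.76 and −2.65 (log2). Heart was at 8.54 and 8.32.

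At the 25 probes that were lower at day 18, the median of the earlier GMT arrays lay near that of MEF. Their median level was 9.44 in MEF, 9.31 at day 3, 9.77 at day 7 and 8.15 at day 18, with 7.33 in heart. The largest falls were at M200000360, at 9.80 in MEF, 10.00 at day 3, 9.96 at day 7 and 8.15 at day 18, and at M200001989. The latter was at 6.23 in MEF, 8.85 at day 3, 10.81 at day 7 and 7.13 at day 18, so it stood above MEF on each GMT array and least at day 18.

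The same differences were then read on the arrays of iCM given GMT with miR-133 at the same days, which took no part in choosing the probes. Of the 123 probes higher at day 18 with GMT, 117 (95.1%) were higher at day 18 than at day 3 with GMT/miR-133, and 53 (43.1%) at least 2-fold. Over all tested probes, 47.7% were higher there and 0.318% at least 2-fold. All 25 lower probes were lower with GMT/miR-133 as well, 7 of them (28.0%) at least 2-fold, beside 51.0% and 0.0921% of all tested probes. The median difference was 0.89 for the 123 probes and −0.57 for the 25 (log2), beside 1.37 and −1.24 with GMT. M400005459 was at 5.84, 5.92 and 11.38 at days 3, 7 and 18 with GMT/miR-133, and M400000367 at 5.78, 5.83 and 10.35. Of the named falls, M200000360 was at 10.3, 9.87 and 9.70 on those arrays, a smaller fall than with GMT. M200001989 was at 8.45, 9.40 and 7.25. The arms of a day share the day and the scan session, and may share the culture and the sort, so the repeat does not tell time in culture from a difference in preparation.

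**Figure D5:**
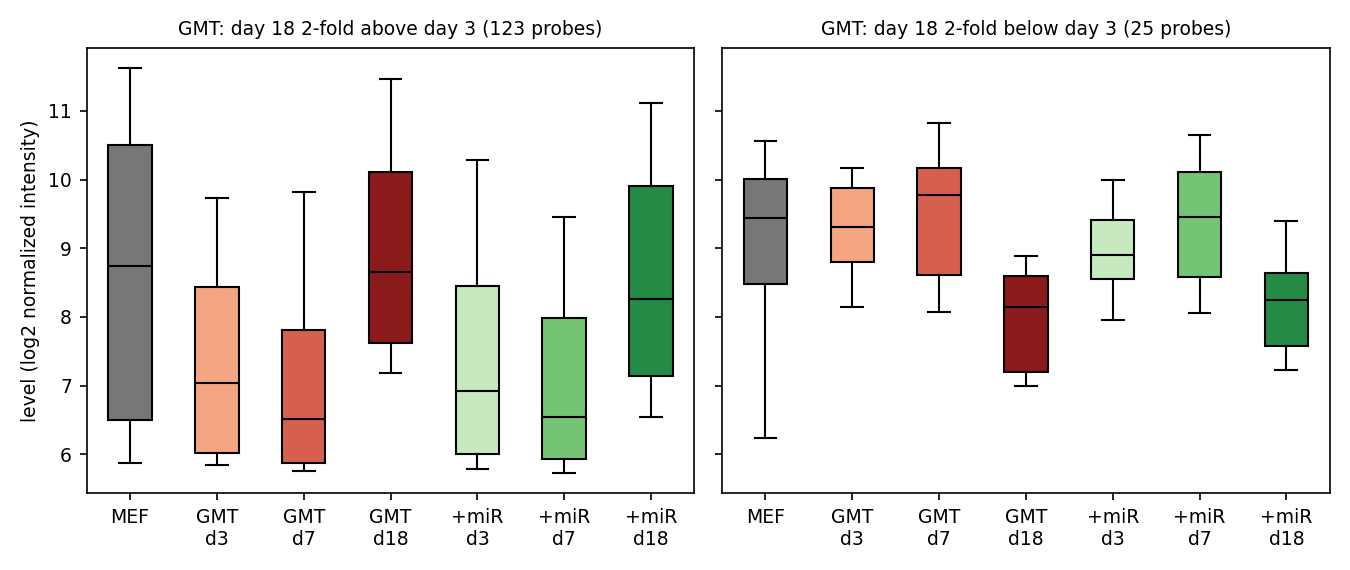
Levels (log2 normalized intensity) of the 123 probes at least 2-fold higher (left) and the 25 at least 2-fold lower (right) at day 18 than at day 3 with GMT, on the MEF array and on the arrays of days 3, 7 and 18 (d3, d7, d18) with GMT and with GMT/miR-133 (+miR). Lines are medians, boxes the quartiles and whiskers the 10th and 90th percentiles. On the left the day 18 medians, 8.65 and 8.25, lie near the 8.74 of MEF, and the medians of days 3 and 7 lie at 6.51 to 7.04.

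The GMT array of day 7 differed from that of day 3 at least 2-fold at 98 probes that were higher (0.451%) and 85 that were lower (0.391%). At the 98 probes the median level was 9.36 in MEF, 7.95 at day 3, 9.32 at day 7 and 7.89 at day 18. The median of day 7 thus lay near that of MEF and those of the other days below it. At the 85 probes it was 7.16 in MEF, 8.63 at day 3, 7.08 at day 7 and 9.36 at day 18, so the median of day 7 again lay near that of MEF. Levels in MEF were widely spread, with quartiles of 7.83 and 11.16 at the 98 and 6.03 and 8.64 at the 85. The 2-fold rule fixed day 7 apart from day 3, so the place of MEF beside these days carries no test. With GMT/miR-133, 92 of the 98 (93.9%) and 84 of the 85 (98.8%) moved the same way from day 3 to day 7, and 34 (34.7%) and 51 (60%) did so at least 2-fold. Over all tested probes in that arm, 50.03% were higher at day 7 than at day 3 and 49.51% were lower. At least 2-fold, 0.396% were higher and 0.580% lower. Both these day 7 arrays were scanned in another session than those of days 3 and 18. A further day 7 array, titled GMT/miR-133 but described as GMT alone, was scanned in a session of its own with the Snai1 array. Its median was 7.66 at the 98 probes, beside 7.92 at day 3 and 8.8 at day 7 on the other GMT/miR-133 arrays. At the 85 probes it was 8.52, beside 8.96 and 7.54. This array was thus nearer to day 3 than to the other day 7 array at both groups. The Snai1 array of the same session, also of day 7, went the other way. It was at 8.43 at the 98 probes and 7.92 at the 85, nearer to that other day 7 array. The part of the session, the preparation and the order of the days was not tested.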

How the data were processed

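Intensities were deposited per array as scanner files. Per the file headers, they hold the median pixel intensity of each of 27456 spots and of the area around it, with no normalization. Per the labels' protocols, amplified RNA was coupled to a dye and hybridised to a Toray chip. The authors' value table holds linear intensities with a median near 25.0 per array, with its making not given in the sources used here.

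Background was corrected by normexp with the 2736 blank spots as controls and an offset of 50, followed by quantile normalization of the 10 arrays on the log2 scale (limma 3.58.1, R 4.3.3). Probes detected on at least 1 of the 4 arrays were tested with limma, which has 2 residual degrees of freedom here, at a Benjamini-Hochberg adjusted p of 0.05. The fit was tested on simulated data. Summaries used Python 3.11.15. The number of arrays limits the precision. The probes, sets and settings were chosen with earlier results of these data known. Named probes are the 2 largest rises and the 2 largest falls in the mean among probes called and at least 2-fold on all 3 GMT arrays, and likewise from day 3 to day 18 among detected probes. None of the gene lists drawn up could be matched to probes, so none is reported. No column of per-sample values lacked a sample.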

Additional observations from a re-analysis of the deposited data

Results flagged for a closer look

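At 9 of the 21722 tested probes the GMT arrays lay on opposite sides of MEF. They were at least 2-fold above it at one day and at least 2-fold below it at another. The difference was not tested, since each day has 1 array. At 7 of the 9, day 7 was below MEF and day 18 above it, and at 2 the order was the other way round. Day 3 was within 1.5-fold of MEF at 8 of them. The IDs given here were chosen after their values were seen, as those with the widest span. M400000587 was at 11.24 in MEF, 11.07 at day 3, 8.37 at day 7 and 13.08 at day 18 (log2 level), and M400004365 at 9.81, 9.68, 7.34 and 11.56. In the other direction, M200013648 was at 11.12 in MEF, 10.45 at day 3, 12.54 at day 7 and 8.84 at day 18, and M300000260 at 9.31, 9.14, 10.47 and 7.88. With GMT/miR-133, all 9 moved the same way from day 7 to day 18, each at least 2-fold. Over all tested probes, 1.25% were at least 2-fold higher at day 18 there and 0.884% lower. Of the 291 probes already 2-fold higher at day 18 than at day 7 with GMT, 67.4% were so there. Of the 203 lower ones, 50.2% were. The day 7 arrays of both arms come from another scan session than those of day 18. The count was 46 with the local background, 21 with an offset of 16 and 55 in the authors' value table. Whether the session or the order of the days has a part in this was not tested.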

How the results depend on the processing

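Of 272 values that the alternatives gave, 130 were signed differences, and none of these changed sign. Most of the 130 belong to named probes chosen for the largest differences in these data. Their sign was close to fixed by that choice, so its keeping carries no test. The balance of rises and falls did turn, for 2-fold on all 3 days in the authors' value table, for 16-fold with an offset of 16 and without day 18, and for day 18 against day 3 in the authors' value table. Called higher and lower, they were 0 and 0 with the local background (2159 probes at an unadjusted p under 0.05), 474 and 1005 with a trended and robust variance, and 533 and 987 when MEF, heart, GMT and GMT/miR-133 arrays shared the spread. Called higher, they were also 340 with an offset of 16, 409 with median scaling, 112 with no filter and 384 in the authors' value table. Without any 1 GMT array, which leaves 1 residual degree of freedom, both were 0. At least 2-fold on all 3 days, 484 probes were higher with an offset of 16 and 949 in the authors' value table. Lower were 335 with the local background and 944 in the authors' value table. The heart-high median was 0.203 with the local background, 0.545 with the offset of 16 and 0.856 in the authors' value table. The MEF-high median was −1.31 with the local background, −1.90 with the offset of 16 and −1.56 over probes detected on all 4 arrays. From day 3 to day 18, 291 probes were higher and 203 lower with days 3 and 7 exchanged, 619 and 181 with the local background, 255 and 44 with the offset of 16, and 854 and 1859 in the authors' value table, which also exchanges the days. With its columns given the days of the scanner files they were 465 and 952. The causes were not tested. The 4-, 8- and 16-fold counts, the alternatives for levels and named probes between days, and the value table with days matched were added after the data had been seen. No paired analysis was possible because the labels give the groups no shared replicate numbers and MEF is 1 array. Dim probes near the blank spots limit every fold change given.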
